A study of Arabidopsis thaliana with 6 samples.

Results

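Expansins and xyloglucan endotransglucosylase/hydrolases (XTHs) are the 2 large families of secreted wall proteins described here in an sqtl1 RNA interference (RNAi) line of Arabidopsis thaliana. Members are the rows of the deposited expression table whose description names an expansin, a xyloglucan endotransglucosylase or a xyloglucan:xyloglucosyl transferase. The rule took 67 of the 38194 genes in the table, 36 in the expansin family and 31 in the XTH family, and 3 of the 67 are annotated as pseudogenes. Whole seedlings were collected 7 days after stratification, with 3 biological replicates of the sqtl1 RNAi line, which the labels place in the Col-0 background, and 3 of wild-type Col-0. Both groups grew on MS agar medium with sucrose under the same cycle of 16 h light and 8 h dark. The sources used here do not say what the mark sh1 in the RNAi sample names stands for, which promoter drives the RNAi construct or how many independent lines were sampled, and the knockdown of the target was not analysed here.

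The primary wall of a growing plant cell is a network of cellulose microfibrils held in a matrix of xyloglucan and pectin. Alpha-expansins (EXPA) loosen this network without cutting it and act best in an acidified wall, whereas XTHs cut xyloglucan chains and either rejoin them to other chains or, in a small clade, hydrolyse them. Beta-expansins (EXPB) and the expansin-like families EXLA and EXLB are related proteins whose wall activity in Arabidopsis is less well known. In seedlings, members of both families are known for specific places of growth, such as root hairs, the root elongation zone, petioles and guard cells.

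Values are RPKM, counted reads scaled by gene length and by library depth. The estimated depth was 87.4 to 93.9 M counted reads per RNAi library and 75.9 to 99.8 M per Col-0 library. The deposited share of reads mapping to several places was 0 for all 67 members, so no member shared reads with a copy by that measure. The RNAi libraries were more variable, with a median SD of 0.226 log2 units over the members tested, against 0.108 in Col-0. Differences between the genotypes were widespread: of the 19458 genes tested, 52.6% passed the test (limma, adjusted p under 0.05), with 25.2% higher and 27.5% lower in RNAi seedlings.

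Most expressed members differed between the genotypes, and more were higher than lower in the RNAi line. Of the 67 members, 44 had a mean of at least 1 RPKM and were tested. Of these 44, 24 (54.5%) were higher and 11 (25%) were lower in sqtl1 RNAi seedlings, against a background of 25.2% higher and 27.5% lower over all genes tested. The median log2 fold change was 0.57 over the members tested and -0.0077 over all genes tested. The XTH family had 15 higher and 5 lower of 23 tested, with a median of 0.84. The expansin family had 9 higher and 6 lower of 21, with a median of 0.43. Within the expansins, the EXPA group had 6 higher and 3 lower of 15, both tested EXPB genes fell, 2 of 3 EXLA genes were higher and 1 was lower, and EXLB1 was higher. The near-even background depended on how libraries were scaled. With libraries rescaled to equal totals, 68.8% of calls over all genes were higher, against 47.8% with the values as deposited. Among members these shares were 71.1% and 68.6%. The median log2 fold change with equal totals was 0.73 over the members and 0.14 over all genes. All values come from whole seedlings. A change in the number of cells that express a gene therefore cannot be told apart from a change in its RNA per cell.

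The 2 families also differed in how much RNA they contributed. Summed over its 31 rows, the XTH family stood at 1582, 1797 and 1742 RPKM in RNAi replicates 1 to 3, against 1136, 1118 and 1158 RPKM in Col-0 replicates 1 to 3. The expansin family summed to 507, 522 and 516 RPKM in RNAi seedlings and to 497, 469 and 505 RPKM in Col-0 seedlings. Over the members, the 2 genotypes were far apart in the XTH sums. XTH4 alone had a mean of 506.3 RPKM in RNAi seedlings and 251.4 RPKM in Col-0 seedlings. The lowest RNAi and the highest Col-0 sum of the expansin members were nearly equal. These sums leave out EXPA3, an expansin outside the rule. It was at 52.6, 60.6 and 53.3 RPKM in RNAi seedlings, against 18.3, 16.1 and 16.4 RPKM in Col-0 seedlings. The near equality therefore holds for the members only, and for the values as deposited. The sum of RPKM multiplied by length over all genes was 929211, 926820 and 979309 in RNAi replicates 1 to 3. It was higher in Col-0 replicates 1 to 3, at 1071469, 1051600 and 1053557, and the family sums were not rescaled to it. XTH23, XTH27 and XTH31 are likewise not in the XTH sums.

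**Figure D1:**
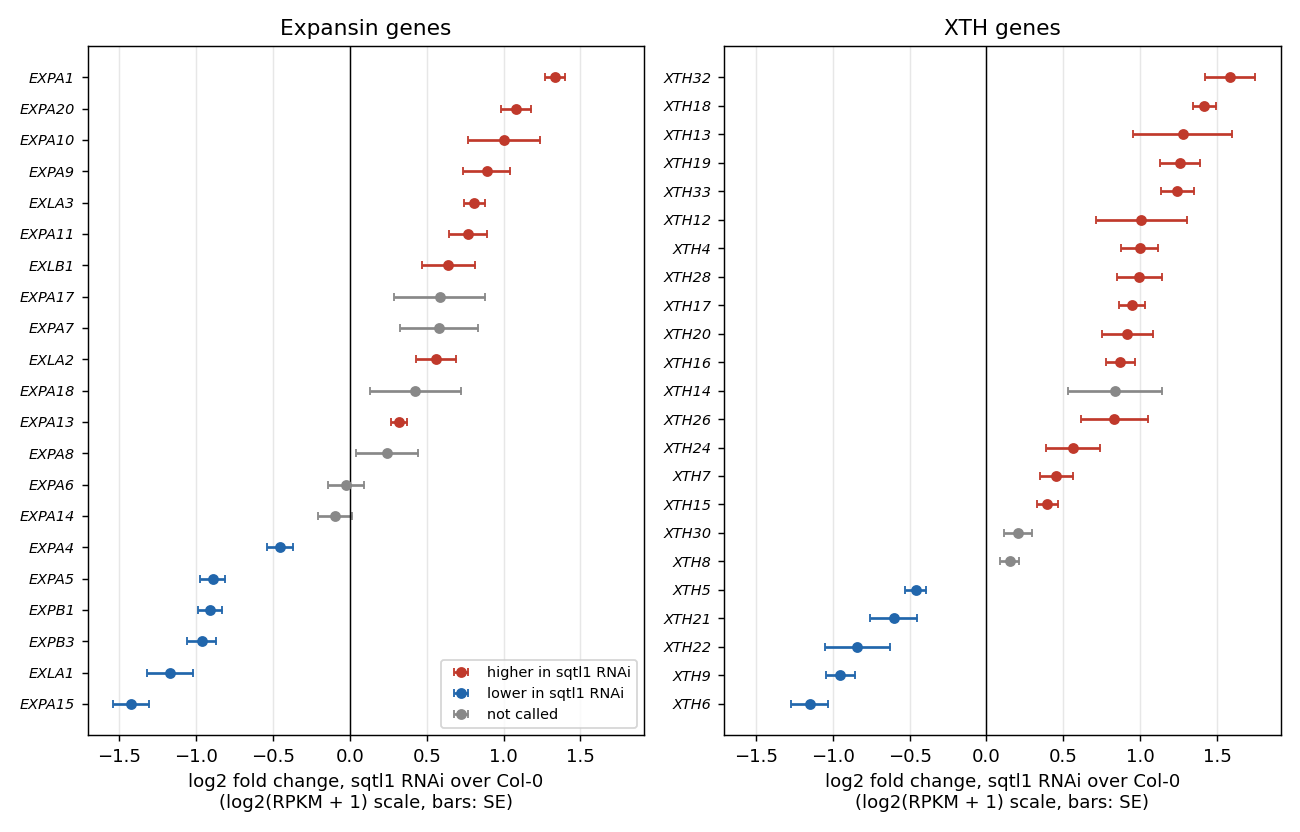
Log2 fold change of the 44 tested members, sqtl1 RNAi over Col-0, on the log2(RPKM + 1) scale, with expansins on the left, XTHs on the right and the SE as bars. Red members were higher and blue members lower in the RNAi line at an adjusted p under 0.05, and grey members were not called; XTHs run from -1.15 to 1.58 and expansins from -1.42 to 1.33.

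EXPA1, an alpha-expansin known from guard cells, had the largest increase among the expansin members. It stood at 115.8, 129.1 and 123.2 RPKM in RNAi replicates 1 to 3 and at 49.5, 45.1 and 49.6 RPKM in Col-0 replicates 1 to 3, so that every RNAi library lay far above every Col-0 library. The mean was 122.7 ± 6.65 RPKM in RNAi seedlings and 48.1 ± 2.53 RPKM in Col-0 seedlings (SD, n = 3 each), a 2.55-fold increase (log2 fold change 1.33, SE 0.065, limma adjusted p = 0.000102). EXPA1 (AT1G69530) lies on chromosome 1 between 26141726 and 26143538. It was also the expansin with the highest RNA level in RNAi seedlings, whereas in Col-0 seedlings EXLA1 and EXPA4 had higher levels per length.

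EXPA20 was at 13.3, 11.7 and 10.6 RPKM in RNAi seedlings, against 5.61, 4.82 and 4.76 RPKM in Col-0 seedlings, 2.34-fold higher without overlap (limma adjusted p = 0.000438). EXPA10, an alpha-expansin of leaf and petiole growth, was at 21.4, 14.7 and 10.9 RPKM in RNAi seedlings, against 7.53, 5.67 and 8.19 RPKM in Col-0 seedlings. Its 2.2-fold increase (limma adjusted p = 0.0123) varied between RNAi libraries and reached an adjusted p of 0.0516 with no filter on low genes. EXPA9 was at 20.6, 22.7 and 14.7 RPKM in RNAi seedlings and at 9.03, 10.6 and 9.85 RPKM in Col-0 seedlings, a 1.97-fold increase. EXPA11 rose 1.75-fold to 43.4 ± 7.68 RPKM, against 24.8 ± 0.775 RPKM in Col-0 seedlings (n = 3 each), and EXPA13 rose 1.27-fold (limma adjusted p = 0.00295 and 0.00374). For these 5 genes the 3 RNAi values all exceeded the 3 Col-0 values, as they did for 31.1% of all genes tested, while 33% lay wholly below.

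EXPA15 had the largest decrease of all members. Its values were 14.8, 11.1 and 11.7 RPKM in RNAi seedlings, against 38.4, 31.9 and 35.1 RPKM in Col-0 seedlings. The level was 2.81-fold lower in the RNAi line, with a wide gap between the groups (log2 fold change -1.42, SE 0.12, limma adjusted p = 0.000362). EXPA15 (AT2G03090) lies on chromosome 2 between 916806 and 918671. EXPA5, an alpha-expansin known to respond to brassinosteroid, was at 2.85, 2.78 and 3.44 RPKM in RNAi seedlings, against 6.76, 6.03 and 6.58 RPKM in Col-0 seedlings (2.14-fold lower, limma adjusted p = 0.000485). EXPA4 fell to 49.0 ± 5.25 RPKM in RNAi seedlings, against 67.3 ± 3.11 RPKM in Col-0 seedlings, a smaller decrease of 1.37-fold (n = 3 each, limma adjusted p = 0.00495).

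The 2 expressed beta-expansins fell by similar factors. EXPB3 was at 25.1, 20.3 and 22.3 RPKM in RNAi seedlings, against 49.3, 41.9 and 43.4 RPKM in Col-0 seedlings, 1.99-fold lower (limma adjusted p = 0.000601). EXPB1, at a lower level, was at 2.95, 2.65 and 3.25 RPKM in RNAi seedlings, against 6.29, 6.88 and 6.1 RPKM in Col-0 seedlings, 2.18-fold lower (limma adjusted p = 0.000385). The other 4 beta-expansins were not tested because of their low level. Of these, EXPB2 was at 0, 0 and 0.01 RPKM in RNAi seedlings and at 0.06, 0.08 and 0.21 RPKM in Col-0 seedlings.

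XTH32, which belongs with XTH31 to the small clade with xyloglucan hydrolase activity, had the largest log2 fold change of all members. It stood at 21.4, 19.6 and 13.2 RPKM in RNAi seedlings, against 5.3, 5.43 and 5.01 RPKM in Col-0 seedlings. The mean was 18.1 ± 4.31 RPKM in RNAi seedlings and 5.25 ± 0.215 RPKM in Col-0 seedlings (SD, n = 3 each), 3.45-fold higher (log2 fold change 1.58, SE 0.16, limma adjusted p = 0.000699). XTH32 (AT2G36870) lies on chromosome 2 between 15472607 and 15474828. XTH33, whose protein is anchored in the plasma membrane, was at 17.1, 21.3 and 17.9 RPKM in RNAi seedlings, against 6.57, 7.11 and 8.39 RPKM in Col-0 seedlings, 2.55-fold higher (limma adjusted p = 0.000429).

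A root-expressed subgroup, XTH17 to XTH20, rose as a set of 4, whereas its relative XTH21 fell. XTH18 was at 94.4, 95.3 and 91.4 RPKM in RNAi seedlings, against 33.6, 38.0 and 31.9 RPKM in Col-0 seedlings, 2.72-fold higher with little spread (log2 fold change 1.42, SE 0.072, limma adjusted p = 0.000109). XTH19 was at 45.1, 61.0 and 44.7 RPKM in RNAi seedlings, against 20.2, 21.9 and 18.6 RPKM in Col-0 seedlings. XTH17 was at 52.7, 57.4 and 47.3 RPKM in RNAi seedlings, against 26.9, 28.3 and 24.9 RPKM in Col-0 seedlings. These changes were 2.49-fold and 1.96-fold, and XTH20 rose 2.04-fold to 15.8 ± 4.17 RPKM, against 7.75 ± 0.495 RPKM in Col-0 seedlings (n = 3 each). XTH21, an enzyme of root growth, was at 6.97, 4.26 and 5.61 RPKM in RNAi seedlings, against 8.06, 9.83 and 8.92 RPKM in Col-0 seedlings, 1.59-fold lower (limma adjusted p = 0.0163). Removing Col-0 replicate 2 or 3 gave adjusted p = 0.0611 or 0.0538, and testing with no filter gave 0.0599.

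**Figure D2:**
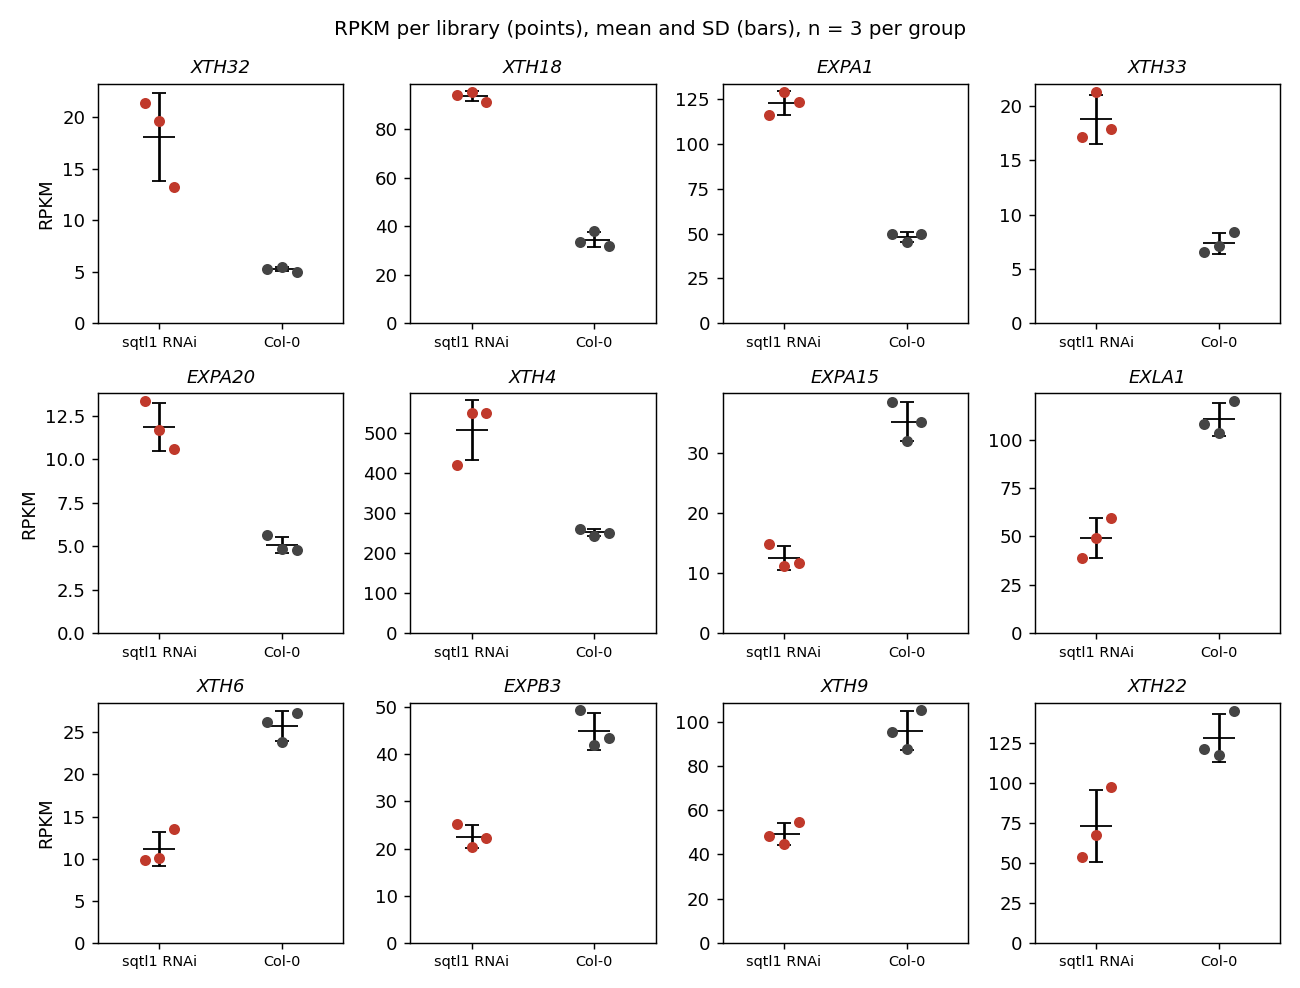
RPKM of 12 called members in each library, with sqtl1 RNAi on the left and Col-0 on the right of each panel; points are libraries, and bars show the mean and SD of 3. The RNAi points lie above every Col-0 point for XTH32, XTH18, EXPA1, XTH33, EXPA20 and XTH4 and below every Col-0 point for EXPA15, EXLA1, XTH6, EXPB3, XTH9 and XTH22.

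XTH4 was the most abundant member in both genotypes. This enzyme of elongating tissue and of wood fibres was at 419.5, 550.2 and 549.3 RPKM in RNAi seedlings, against 260.7, 242.4 and 251.0 RPKM in Col-0 seedlings, 2.01-fold higher (limma adjusted p = 0.00107). XTH9, which acts with XTH4 in stems, went the other way. It was at 48.4, 44.8 and 54.7 RPKM in RNAi seedlings, against 95.2, 87.7 and 105.3 RPKM in Col-0 seedlings, 1.95-fold lower (limma adjusted p = 0.000674). XTH28, known from stamen filament growth, was at 126.7, 103.5 and 81.5 RPKM in RNAi seedlings, against 51.1, 50.7 and 50.4 RPKM in Col-0 seedlings. Its RNAi values were spread and its Col-0 values nearly equal, and the increase was 2.05-fold (limma adjusted p = 0.00224). XTH16 rose 1.84-fold to 82.6 ± 6.75 RPKM, against 44.8 ± 4.72 RPKM in Col-0 seedlings, and XTH15, a gene known from shade-induced elongation, rose 1.32-fold to 46.8 ± 0.55 RPKM, against 35.4 ± 3.05 RPKM (n = 3 each, limma adjusted p = 0.000806 and 0.004).

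Smaller or less even increases were found for XTH7 and XTH26. XTH7 was at 124.4, 115.8 and 101.5 RPKM in RNAi seedlings, against 93.8, 77.6 and 77.2 RPKM in Col-0 seedlings, 1.37-fold higher (limma adjusted p = 0.0123), and missed the threshold when Col-0 replicate 2 or 3 was removed (adjusted p = 0.0509 and 0.0523). XTH26, an enzyme of roots and root hairs, was at 7.09, 13.8 and 8.05 RPKM in RNAi seedlings, against 4.43, 4.75 and 5.17 RPKM in Col-0 seedlings, 2.02-fold higher (limma adjusted p = 0.0183). RNAi replicate 2 was the high value here. Removing Col-0 replicate 1 or 2 ended the call (adjusted p = 0.0655 and 0.0572), and so did testing with no filter (adjusted p = 0.0683).

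Among the decreases, XTH6 was at 9.84, 10.08 and 13.52 RPKM in RNAi seedlings, against 26.2, 23.8 and 27.3 RPKM in Col-0 seedlings. This 2.31-fold lower level was the largest decrease among XTHs (log2 fold change -1.15, SE 0.12, limma adjusted p = 0.000729). XTH5 was 1.46-fold lower, at 4.23 ± 0.372 RPKM in RNAi seedlings and 6.2 ± 0.313 RPKM in Col-0 seedlings (n = 3 each, limma adjusted p = 0.0025).

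Members that lie next to each other on a chromosome did not always move together. On chromosome 4, XTH24, XTH18 and XTH19 lie between 14819192 and 14830224 (coordinates of TAIR10.1), and all 3 were higher in the RNAi line. XTH24, also called MERI5, was at 174.9, 226.6 and 292.9 RPKM in RNAi seedlings, against 155.0, 156.4 and 147.9 RPKM in Col-0 seedlings. Its 1.51-fold increase (limma adjusted p = 0.034) missed the threshold when Col-0 replicate 1, 2 or 3 was removed (adjusted p = 0.0891, 0.0844 and 0.102). The increase also missed it without RNAi replicate 2 (adjusted p = 0.0891) and with no filter (adjusted p = 0.102). Coding sequences of XTH18 and XTH19 were 89.2% identical, and XTH18 and XTH24 were 72% identical.

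On chromosome 5, XTH12, XTH13, XTH25 and XTH22 lie in this order between 23300321 and 23308680, and the direction changed within the run. XTH12 and XTH13 were higher in the RNAi line and XTH22 was lower. XTH22, the touch-induced gene TCH4, was at 53.5, 67.6 and 97.5 RPKM in RNAi seedlings, against 120.9, 117.5 and 144.9 RPKM in Col-0 seedlings, 1.75-fold lower (limma adjusted p = 0.0161). RNAi replicate 3 lay nearest to Col-0. The call ended when Col-0 replicate 3 (adjusted p = 0.0612) or RNAi replicate 2 was removed (adjusted p = 0.0554), and with no filter (adjusted p = 0.0613). XTH25, just under the level needed for the test, was at 0.44, 0.55 and 0.95 RPKM in RNAi seedlings and at 1.35, 1.5 and 1.2 RPKM in Col-0 seedlings. Coding sequences of XTH12 and XTH13 were 89.7% identical, those of XTH22 and XTH25 were 73% identical, and those of XTH13 and XTH25 were 68.7% identical.

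The EXLA3 and EXLA1 pair on chromosome 3, between 16892702 and 16897308, also split. EXLA1 was at 38.7, 49.1 and 59.7 RPKM in RNAi seedlings, against 108.2, 103.3 and 119.9 RPKM in Col-0 seedlings, 2.25-fold lower (log2 fold change -1.17, SE 0.15, limma adjusted p = 0.00139). Its neighbour EXLA3 was at 3.29, 3.26 and 3.71 RPKM in RNAi seedlings, against 1.51, 1.46 and 1.59 RPKM in Col-0 seedlings, 2.25-fold higher (log2 fold change 0.81, SE 0.069, limma adjusted p = 0.000389). Both changes were without overlap and in opposite directions, although the coding sequences of the pair were 86.6% identical. The third member, EXLA2 on chromosome 4, rose 1.51-fold to 28.0 ± 4.56 RPKM, against 18.5 ± 2.16 RPKM in Col-0 seedlings (n = 3 each, limma adjusted p = 0.0117). EXLB1 was at 8.49, 11.1 and 14.2 RPKM in RNAi seedlings, against 6.02, 7.61 and 6.62 RPKM in Col-0 seedlings, 1.67-fold higher (limma adjusted p = 0.0202). The call ended when Col-0 replicate 1 or 3 (adjusted p = 0.0741 and 0.0645) or RNAi replicate 2 was removed (adjusted p = 0.0609), and with no filter (adjusted p = 0.0715).

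**Figure D3:**
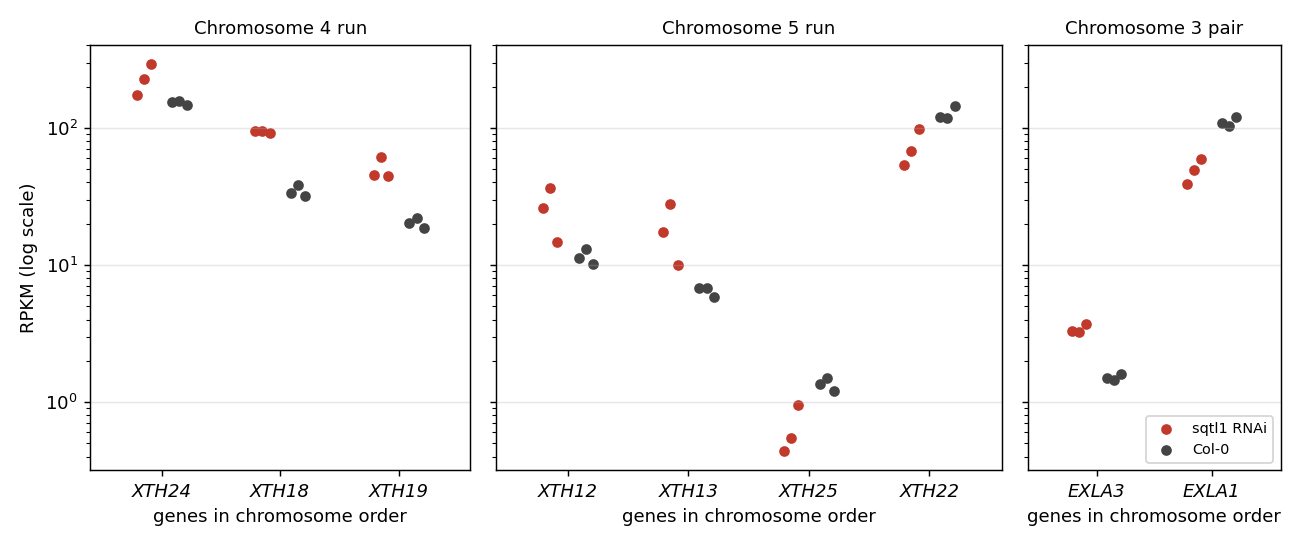
RPKM on a log scale of neighbouring members in chromosome order, with sqtl1 RNAi in red on the left and Col-0 in grey on the right of each gene; each point is 1 library, with 3 per genotype. XTH24, XTH18 and XTH19 are all higher in RNAi seedlings, whereas XTH12 and XTH13 are higher beside the lower XTH22, and EXLA3 is higher beside the lower EXLA1.

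Members known from root hairs were uneven among the RNAi replicates, though not all in the same way. Root hairs are tubular outgrowths of root epidermal cells, and EXPA7 and EXPA18 are the alpha-expansins of their growth. Basic helix-loop-helix factors of the RSL family are known to bind the root hair element, a cis element shared by promoters of root hair genes. The 150 bases upstream of the RefSeq gene start are shown for these 2 genes and for XTH13 and XTH14, because these 4 are the root hair genes described next. All are from RefSeq TAIR10.1: EXPA7 at chr1:4276355-4276504 (plus strand), EXPA18 at chr1:23331413-23331562 (plus strand), XTH13 at chr5:23304096-23304245 (minus strand) and XTH14 at chr4:13130141-13130290 (plus strand). Capitals mark the match to the root hair element in the EXPA genes and a stretch common to the XTH genes.
EXPA7: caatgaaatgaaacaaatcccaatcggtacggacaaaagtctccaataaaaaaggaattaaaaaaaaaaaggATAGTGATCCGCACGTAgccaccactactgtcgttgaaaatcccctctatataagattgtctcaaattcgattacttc
EXPA18: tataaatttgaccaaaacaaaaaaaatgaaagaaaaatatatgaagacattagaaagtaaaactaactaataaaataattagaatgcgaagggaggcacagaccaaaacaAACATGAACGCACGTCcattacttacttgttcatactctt
XTH13: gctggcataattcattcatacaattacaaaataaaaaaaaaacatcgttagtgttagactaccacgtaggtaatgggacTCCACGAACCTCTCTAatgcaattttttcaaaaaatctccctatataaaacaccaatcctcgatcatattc
XTH14: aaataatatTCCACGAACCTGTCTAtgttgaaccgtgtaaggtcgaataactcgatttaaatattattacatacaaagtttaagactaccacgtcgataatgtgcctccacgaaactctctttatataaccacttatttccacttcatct

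The root hair element was searched on both strands in windows of 250 bases before to 50 after the gene start. Its match in EXPA7 covers positions -78 to -62 from the start, and EXPA18 has a match at -40 to -25 and another at 6 to 22. These were the only matches among the 64 members with a window, and 0.867% of all 27443 windows held one. The element is known from promoters of root hair genes, so its matches in EXPA7 and EXPA18 are not an independent result. The longest ungapped stretch that the windows of XTH12, XTH13 and XTH14 share with at most 1 differing position was TCCACGAACCTNTCTA. It occurred in 3 of the 27443 windows, those of XTH14 at -141 to -126, XTH13 at -71 to -56 and XTH12 at 7 to 22. The search was built on these 3 genes, whose coding sequences are alike (89.7% for XTH12 and XTH13, 78.7% for XTH13 and XTH14), so the match is between related sequences. Shares of other short motifs, again on both strands, were read for members against all windows. CACGTG was in 1.56% of member windows and 7.68% of all windows, CGTGNG in 18.8% and 15.2%, and TGTCNC in 26.6% and 29.3%. In EXPA7 the CGTGNG match at -69 to -64 lies within the match to the root hair element, and both CGTGNG matches of EXPA18, at -32 to -27 and at 15 to 20, do too.

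The levels of EXPA7, EXPA18 and XTH14 were high in RNAi replicates 1 and 2 and near or below the Col-0 levels in RNAi replicate 3. EXPA7 was at 25.97, 22.47 and 12.2 RPKM in RNAi replicates 1 to 3, against 11.5, 13.3 and 12.9 RPKM in Col-0 seedlings. EXPA18 was at 25.4, 23.5 and 11.0 RPKM in RNAi seedlings, against 12.2, 15.4 and 13.8 RPKM in Col-0 seedlings. For both genes RNAi replicate 3 lay within or below the range of Col-0, and neither was called over all libraries (log2 fold change 0.58 and 0.43, limma adjusted p = 0.0956 and 0.263). Without RNAi replicate 3 they were called at 0.89 and 0.79 on the log2 scale (limma adjusted p = 0.000369 and 0.000853), and with library weights at 0.78 and 0.72 (adjusted p = 4.76e-05 and 0.00029). RNAi replicate 3 was already set apart by these values, so a call without it adds no support. Without RNAi replicate 1 or 2 neither gene was called (limma adjusted p = 0.201 and 0.243 for EXPA7, 0.542 and 0.54 for EXPA18). Over all genes, leaving out RNAi replicate 3 gave 5515 higher and 6061 lower of 19447. Library weights, whose estimate stopped before it converged, gave 7717 higher and 7836 lower of 19458.

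XTH14, an enzyme of roots and root hairs, was at 95.6, 85.3 and 40.9 RPKM in RNAi seedlings, against 34.4, 41.1 and 40.1 RPKM in Col-0 seedlings. It was not called (log2 fold change 0.84, limma adjusted p = 0.0558) except with quantile normalization (adjusted p = 0.0482), with libraries rescaled to equal totals (adjusted p = 0.0339), with library weights (adjusted p = 2.05e-05) or without RNAi replicate 3 (log2 fold change 1.21, adjusted p = 0.000167). XTH13 was at 17.4, 28.0 and 10.02 RPKM in RNAi seedlings, against 6.8, 6.75 and 5.82 RPKM in Col-0 seedlings. XTH12 was at 25.9, 36.2 and 14.8 RPKM in RNAi seedlings, against 11.2, 13.1 and 10.3 RPKM in Col-0 seedlings. In these neighbours, of which XTH12 was added for its position, RNAi replicate 2 was highest and replicate 3 was lowest but still above Col-0, and both were called (2.86-fold and 2.22-fold, limma adjusted p = 0.0158 and 0.0267). XTH13 missed the threshold when Col-0 replicate 3 was removed (adjusted p = 0.057) and with no filter (adjusted p = 0.0625). XTH12 missed it when Col-0 replicate 1, 2 or 3 (adjusted p = 0.08, 0.0554 and 0.0873) or RNAi replicate 2 was removed (adjusted p = 0.0584), and with no filter (adjusted p = 0.0918).

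XTH26, described above and also known from root hairs, did not share this order, since its lowest RNAi value was in replicate 1 and its value in replicate 3 lay above all of Col-0. The 10 other root hair markers summed to 132.4, 134.8 and 68.4 RPKM in RNAi replicates 1 to 3, against 73.2, 87.3 and 75.6 RPKM in Col-0 seedlings. Most of each sum came from PRP3, at 86.5, 82.8 and 40.2 RPKM in RNAi seedlings, against 40.7, 50.1 and 43.5 RPKM in Col-0 seedlings. The median log2 fold change over the 9 markers tested was 0.14, and 7 of them were not called. RNAi replicate 3 was the lowest RNAi library for all 10 markers, for 18 of the 44 members tested (40.9%) and for 38.8% of all genes tested. It was nearest to the Col-0 mean for 4 of the 10 markers, so the markers differed in where that lowest value stood relative to Col-0. Of 9 markers tested, RSL4, a regulator of hair elongation, was higher in RNAi seedlings at 5.66, 6.5 and 3.43 RPKM, against 3.05, 2.17 and 1.86 RPKM in Col-0 seedlings (limma adjusted p = 0.0164). Its relative RSL2 was lower at 2.19, 1.75 and 1.16 RPKM, against 3.21, 4.28 and 4.21 RPKM in Col-0 seedlings (limma adjusted p = 0.00502). No marker of this list was listed at 0 in any library. The part that the share of root hair cells had in these levels was not tested.

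**Figure D4:**
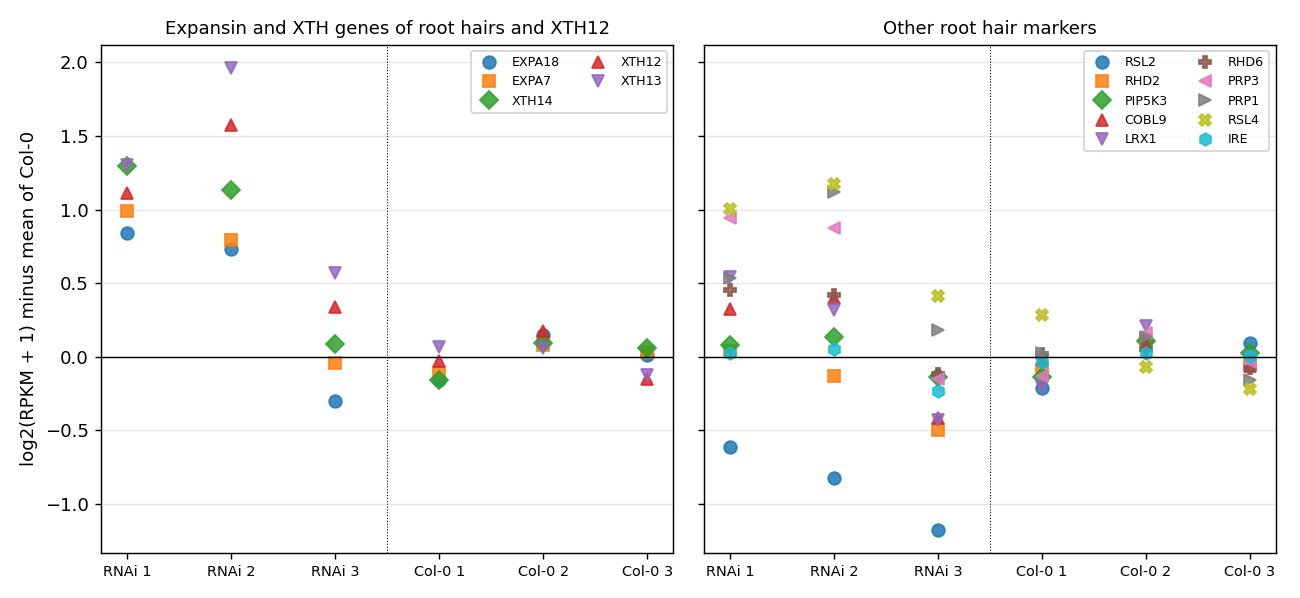
Difference of log2(RPKM + 1) from the Col-0 mean in each library, for EXPA7, EXPA18, XTH12, XTH13 and XTH14 on the left and 10 other root hair markers on the right; each point is 1 gene in 1 library. The 5 members lie between 0.74 and 1.96 in RNAi replicates 1 and 2 and between -0.30 and 0.57 in RNAi replicate 3.

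Tissue markers beside these changes went in different directions. The 7 root markers summed to between 2815 and 4095 RPKM in RNAi libraries and between 3653 and 3847 RPKM in Col-0 libraries, most of it from PYK10. SCR and SHR were higher in RNAi seedlings, CASP1 and CASP2 were lower, and the other 3 were not called. The 3 shoot markers, RBCS1A and 2 light-harvesting genes, were all lower, and their sum ranged from 15217 to 23903 RPKM in RNAi libraries and from 33802 to 35725 RPKM in Col-0 libraries. None of these 10 genes was listed at 0 in any library. Whether the share of shoot or root tissue had a part in the levels of expansins and XTHs was not tested.

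The remaining tested members did not pass the test. EXPA17, an alpha-expansin known from lateral root emergence, was at 13.7, 7.28 and 5.51 RPKM in RNAi seedlings, against 4.1, 5.56 and 6 RPKM in Col-0 seedlings, so that only RNAi replicates 1 and 2 lay above the Col-0 range. Its adjusted p was 0.139, 0.029 without RNAi replicate 3 and 0.00915 with library weights (limma). EXPA8 was at 10.7, 15.1 and 18.7 RPKM in RNAi seedlings and at 14.4, 11.8 and 10.4 RPKM in Col-0 seedlings (adjusted p = 0.346, 0.0379 without RNAi replicate 1 and 0.00566 with library weights, limma). XTH8 was at 49.97 ± 2.86 RPKM in RNAi seedlings and 44.9 ± 2.08 RPKM in Col-0 seedlings, without overlap but short of the threshold (n = 3 each, limma adjusted p = 0.082). XTH30 was at 51.0 ± 5.43 RPKM in RNAi seedlings and 44.0 ± 3.18 RPKM in Col-0 seedlings (n = 3 each, limma adjusted p = 0.109, and 0.0111 without RNAi replicate 1). XTH30 was also called with the replicate number as a block (adjusted p = 0.0421) and with library weights (adjusted p = 0.0004). XTH8 and XTH30 were both called with quantile normalization (adjusted p = 0.0247 and 0.0475) and with libraries rescaled to equal totals (adjusted p = 0.00379 and 0.0142). EXPA6 and EXPA14 differed by less than the spread between replicates, at -0.03 and -0.09 on the log2 scale, and their sign changed under some settings (limma adjusted p = 0.865 and 0.504).

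The other 23 members were too low to be tested. In 14 of them every library held at most 3 counted reads, among them 6 neighbouring expansins on chromosome 5 (EXPA21, EXPA22, EXPA23, EXP26, EXPA25 and EXPA24), 3 beta-expansins, XTH1, XTH3 and the 3 pseudogenes. The other 9 reached at most 1.5 RPKM. EXPA2, an alpha-expansin of seed germination, was at 0.1, 0.3 and 0.25 RPKM in RNAi seedlings and at 0.11, 0.06 and 0.01 RPKM in Col-0 seedlings. XTH11 was at 0.57, 0.34 and 0.42 RPKM in RNAi seedlings and at 0.17, 0.1 and 0.02 RPKM in Col-0 seedlings, and XTH2 was at 0.03, 0.07 and 0.14 RPKM in RNAi seedlings and at 0.38, 0.26 and 0.4 RPKM in Col-0 seedlings.

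Some relatives carry other descriptions in the table and so fall outside the rule. RefSeq names put 6 further genes in these families, of which 4 were tested, and with them the counts are 26 higher and 12 lower of 48. EXPA3 (AT2G37640) was at 52.6, 60.6 and 53.3 RPKM in RNAi seedlings, against 18.3, 16.1 and 16.4 RPKM in Col-0 seedlings. Its level was 3.27-fold higher (limma adjusted p = 9.05e-05). On the log2(RPKM + 1) scale its change of 1.65 exceeded that of each member, but by ratio of means XTH32 rose more, at 3.45-fold. XTH23 (AT4G25810), the neighbour of XTH14, was at 38.5, 38.6 and 36.4 RPKM in RNAi seedlings, against 14.76, 13.95 and 16.56 RPKM in Col-0 seedlings, 2.51-fold higher (limma adjusted p = 0.000132). Its RNAi replicates were close to each other, unlike those of XTH14. XTH31, the relative of XTH32, was at 236.7, 146.4 and 87.1 RPKM in RNAi seedlings, against 89.7, 116.3 and 109.0 RPKM in Col-0 seedlings, and was not called (log2 fold change 0.47, limma adjusted p = 0.283). Its log2 fold change was 0.83 without RNAi replicate 3 (adjusted p = 0.0154) and 0.11 without RNAi replicate 1 (adjusted p = 0.69), and it was called with library weights (adjusted p = 0.00379). XTH27 was 1.17-fold lower (limma adjusted p = 0.0453). That call was lost without any 1 of Col-0 replicates 1 to 3 or of RNAi replicates 1 and 2 (adjusted p from 0.0622 to 0.134), with the replicate block (adjusted p = 0.0739), with no filter (adjusted p = 0.0863), with quantile normalization (adjusted p = 0.126) and with equal totals (adjusted p = 0.454).

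Few of the genes that make and trim xyloglucan or acidify the wall passed the test, though their number depended on the settings. A list of 24 such genes held 2 higher and 3 lower in RNAi seedlings. That is 20.8% called, against 52.6% over all genes tested. The median log2 fold change of the list was 0.08, with a range from -0.49 to 0.50. FUT1, the fucosyltransferase that caps xyloglucan side chains, was at 19.1, 18.6 and 16.3 RPKM in RNAi seedlings, against 12.4, 12.3 and 12.6 RPKM in Col-0 seedlings, 1.45-fold higher (limma adjusted p = 0.00152). CSLC4, a synthase of the glucan backbone, was 1.17-fold higher (limma adjusted p = 0.0251). XLT2, a galactosyltransferase of the side chains, was at 5.69, 4.33 and 4.84 RPKM in RNAi seedlings, against 7.44, 7.47 and 7.05 RPKM in Col-0 seedlings (1.48-fold lower, limma adjusted p = 0.0046). The plasma membrane proton pump genes AHA11 and AHA4 were 1.32-fold and 1.52-fold lower (limma adjusted p = 0.00185 and 0.00773), and the 4 other pumps of the list, among them the abundant AHA1 and AHA2, were not called. The count of higher genes was 1 without any 1 of Col-0 replicates 1 to 3 or without RNAi replicate 2, 4 without RNAi replicate 1 and 7 without RNAi replicate 3. It was 1 with the replicate block, 4 with quantile normalization, 12 with libraries rescaled to equal totals and 13 with library weights, and CSLC4 lost its call in each setting where the count was 1. With equal totals 3 of the 24 were lower, and over all genes 7738 were higher and 3503 lower of 19463. With library weights 5 of the 24 were lower, and over all genes 7717 were higher and 7836 lower of 19458. The low share of calls in the list therefore depended on the settings.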

How the data were processed

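RNA of whole seedlings was sequenced as stranded poly(A) libraries, per the labels' protocols. RPKM values per gene, to 2 decimals, were deposited by the authors beside gene length (kb) and a fraction between 0 and 1 that the file headers call a multiple-mapping ratio. Trimmomatic 0.39, Bowtie2 2.2.6 and build TAIR10 appear in the submitters' processing notes. How reads were counted, on which gene set and whether by strand is not stated there. Of 38199 lines, 5 named no gene and were left out.

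Low values of short genes with a multiple-mapping ratio of 0 lay on whole steps of 1 counted read after an offset of 0.5 reads, within 0.0055 RPKM, for 100% of values in each library. These steps gave the depths. Whether a counted read is 1 mate of a pair is not known. The sum of RPKM multiplied by length ranged from 926820 to 979309 over RNAi libraries and from 1051600 to 1071469 over Col-0 libraries.

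The test was limma (3.58.1, R version 4.3.3) with a variance trend, applied to log2(RPKM + 1). It took the 19458 genes whose mean over 6 libraries reached 1 RPKM, and p-values were Benjamini-Hochberg adjusted over all of them at a threshold of 0.05. Log2 fold changes understate low genes. Fold values are ratios of mean RPKM. The step was tested on simulated data. Alternatives were 2 other pseudocounts, 2 other filters, quantile normalization, equal totals, no variance trend, library weights, the replicate number as a block and leaving out each library. With no filter, the test took the 36235 genes above 0 in at least 1 library. Members named are the 15 largest called increases and all 11 called decreases, the 3 highest of each family, neighbours of these within 15 kb, and the root hair members EXPA7, EXPA18, XTH13 and XTH14. Up to 4 called pathway genes were named per direction. Members named beyond this rule were chosen after their values were seen. The members, lists and tests were chosen with earlier results of these data known. Names, coordinates and sequences are from RefSeq TAIR10.1. The table gives identifiers without coordinates, and 37898 of 38194 matched. Coding sequences were aligned with Biopython 1.88.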

Additional observations from a re-analysis of the deposited data

How the results depend on the processing

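Of the 35 called members, 26 kept their call under each of the 15 alternatives in which they were fitted, and none changed direction; the 5 RPKM filter left 32 of the 35 to fit. The counts of members stayed within 1.5 times of 24 higher and 11 lower under each alternative, with 19 to 28 higher and 9 to 12 lower when 1 library was left out. With libraries rescaled to equal totals, the median log2 fold change of all genes moved to 0.14, from -0.0077, and that of the members to 0.73, from 0.57. Over all genes that scaling gave 7738 higher and 3503 lower, so that 68.8% of calls were higher, against 47.8%, while among members 71.1% of calls were higher, against 68.6%. Library weights, whose estimate stopped before it converged, gave 7717 higher and 7836 lower of 19458 genes tested. Leaving out 1 library gave 3515 to 5515 higher and 3975 to 6061 lower over all genes. Of the 24 pathway genes, the number higher was 4 with quantile normalization, 12 with equal totals, 13 with library weights and 1 with the replicate block, and 1 to 7 when 1 library was left out; the number lower was 5 with library weights. EXPA6 changed sign with quantile normalization (0.0265), with equal totals (0.135) and when 1 library was left out (-0.131 to 0.0879), and EXPA14 with equal totals (0.0431) and library weights (0.112). The cause was not tested. The replicate numbers were not taken to pair the samples. Deviations of same-numbered libraries correlated at -0.0642, 0.0928 and 0.0198, but with 3 libraries per genotype such values cannot show whether samples were paired. With the replicate block, 25 members were higher and 11 lower. Precision is limited by 3 libraries per genotype. The 1 RPKM filter left 23 members untested, of which 14 held at most 3 counted reads in every library.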
